A study of Mus musculus with 14 samples.

Results

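The miR-135 family was examined in mouse dorsal root ganglia (DRG), which hold the cell bodies of sensory neurons, with and without crush of the sciatic nerve. Its members were taken by name as every arm and copy of miR-135a and miR-135b, which gave 4 of the 1123 mature miRNAs in the files: miR-135a-5p, miR-135b-5p, miR-135a-2-3p and miR-135b-3p. The family was chosen by the measured level of miR-135a-5p, which was higher after injury in C57BL/6, so its values in that contrast are a description and carry no test. The CAST/Ei libraries had no part in that contrast. Both 5p arms passed the filter on low values and both 3p arms did not.

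The 14 small RNA libraries came from C57BL/6 mice (5 naive, 3 injured) and from CAST/Ei mice (3 naive, 3 injured), 2 inbred strains, and per the series' design text they are biological replicates. Injured animals of either strain were adult males, 8 to 10 weeks old, and had the left nerve crushed with forceps for 30 s. Naive animals had no treatment, and their age and sex, the time from crush to dissection and the ganglia taken are not stated in the labels. All ganglia were dissociated before RNA extraction, and no allele or agent beyond the strain background is named for any group.

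A miRNA hairpin is cut into 2 arms, 5p and 3p, and the arm that stays in the Argonaute complex pairs with messenger RNAs through its seed, bases 2 to 8. In the mouse, miR-135a comes from 2 hairpins on different chromosomes and miR-135b from another. In neurons the family is known for repressing KLF4, a transcription factor that holds back axon growth, and miR-135a also for repressing the serotonin transporter.

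The arms that RefSeq (GRCm38.p6) lists are printed 5′ to 3′, with the seed in capitals, because the files name arms and copies separately while the 5p reads of the miR-135a copies cannot be told apart. The table held 3 of the 4 members, and miR-135b-5p is named only.
miR-135a-5p: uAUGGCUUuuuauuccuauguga
miR-135a-1-3p: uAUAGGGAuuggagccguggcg
miR-135a-2-3p: uGUAGGGAuggaagccaugaa
miR-135b-3p: aUGUAGGGcuaaaagccauggg
The 23 bases of miR-135a-5p were identical in Mir135a-1 and Mir135a-2, so its level is the sum over both copies. The 3p arms of these copies carry different seeds, and of these arms only miR-135a-2-3p was in the files. miR-135a-1-3p was not analysed here. No other mature miRNA of the RefSeq table shared the seed of any printed arm. That table lacks miR-135b-5p, so its seed could not be compared with that of miR-135a-5p.

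The Mir135a-2 hairpin is the only miR-135a copy with both arms in the files. It lies at chr10:92072086-92072185 (GRCm38, minus strand) and is printed with its 5p and 3p arms in capitals.
Mir135a-2: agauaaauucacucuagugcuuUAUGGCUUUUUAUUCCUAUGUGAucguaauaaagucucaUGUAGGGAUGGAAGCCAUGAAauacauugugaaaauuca
In the GENCODE annotation this hairpin is intronic in Rmst, a long non-coding RNA gene on the same strand. Mir135a-1 lies at chr9:106154124-106154213 (plus strand), in an intron of the antisense gene D030055H07Rik on the same strand and opposite an exonic UTR of Glyctk, the glycerate kinase gene. Mir135b lies at chr1:132198088-132198184 (plus strand), in an intron of Lemd1, a gene for a LEM-domain protein, on the same strand. The build behind the deposited values is not given, so these positions come from the reference annotation alone.

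Levels are given in CPM, read counts relative to the library total after the authors' scaling between libraries. In C57BL/6 naive ganglia miR-135a-5p stood at 62.1, 78.7, 66.4, 77.4 and 112 CPM in libraries 1 to 5. In C57BL/6 injured ganglia it stood at 217, 142 and 203 CPM. The lowest injured library lay above the highest naive one, and naive library 5 was the highest of its group. Naive CAST/Ei ganglia held miR-135a-5p at 110, 150 and 118 CPM, and those injured held it at 170, 122 and 171 CPM. The CAST/Ei groups overlapped, because injured library 2 lay below naive library 2.

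The order of the group means of miR-135a-5p ran from C57BL/6 naive (79.3 ± 19.6 CPM; SD, n = 5) through CAST/Ei naive (126 ± 21.5, n = 3) and CAST/Ei injured (154 ± 27.7, n = 3) to C57BL/6 injured (187.6 ± 40.0, n = 3). Each group overlapped its neighbour in that order. The first overlap rested on C57BL/6 naive library 5, at 112 CPM against 110 in the lowest CAST/Ei naive library. By abundance miR-135a-5p held a mean rank of 289.3 among the 1123 miRNAs in C57BL/6 naive and 222.5 in C57BL/6 injured ganglia, and of 248 and 232.7 in CAST/Ei naive and injured ganglia.

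miR-135b-5p followed another order. In C57BL/6 naive ganglia it stood at 63.6, 86.8, 89.7, 65.4 and 26.9 CPM, and in C57BL/6 injured ganglia at 65.3, 61.0 and 71.3 CPM. All 3 injured libraries fell inside the naive range, whose lowest value was again that of library 5. For CAST/Ei it stood at 127, 128 and 92.0 CPM in naive ganglia, and at 86.9, 80.3 and 78.6 CPM in injured ones. All 3 CAST/Ei injured libraries lay below the lowest CAST/Ei naive library.

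The means of miR-135b-5p for C57BL/6 were 65.9 ± 5.17 CPM (SD, n = 3) after injury and 66.5 ± 25.1 (n = 5) without. For CAST/Ei they were 82.0 ± 4.38 CPM (SD, n = 3) after injury and 116 ± 20.6 (n = 3) without. The C57BL/6 groups overlapped each other, and C57BL/6 naive overlapped CAST/Ei injured. CAST/Ei naive, the highest group, overlapped no other on the deposited scale. With plain CPM, each library taken relative to its own total, CAST/Ei naive library 3 was at 80.4, below C57BL/6 naive library 2 (92.3) and all CAST/Ei injured libraries (85.6 to 95.7), so both separations were lost.

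**Figure D1:**
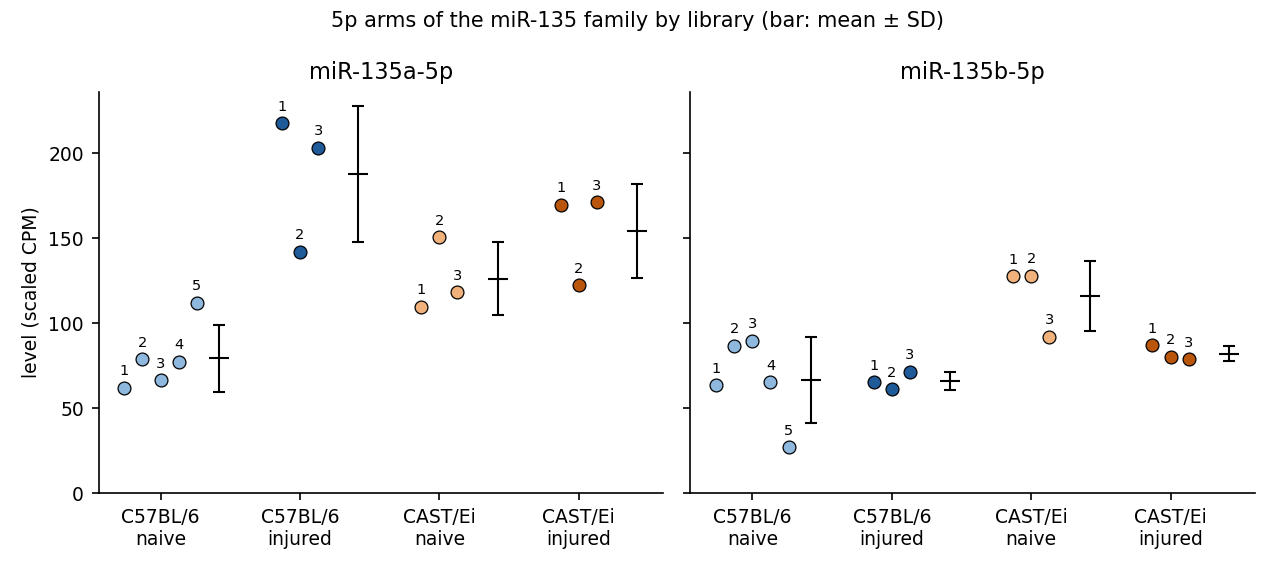
Level of miR-135a-5p (left) and miR-135b-5p (right) in scaled CPM for each of the 14 libraries, numbered by replicate, with the mean and SD of each group as a bar. miR-135a-5p was highest in C57BL/6 injured ganglia (142 to 217 CPM), and miR-135b-5p was highest in CAST/Ei naive ganglia (92.0 to 128 CPM).

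Whether the family changed after injury was tested in CAST/Ei, with limma on log2(CPM + 1) over 638 miRNAs and a Benjamini-Hochberg adjusted p of 0.05 as the threshold. Neither 5p arm passed. The mean of miR-135a-5p was 1.22 times that of naive ganglia, with a log2 difference of 0.29 ± 0.29 (SE) and a 95% interval from -0.33 to 0.90 (limma, adjusted p = 0.870). The mean of miR-135b-5p was 0.708 times that of naive ganglia, with a log2 difference of -0.48 ± 0.37 (SE) and a 95% interval from -1.27 to 0.31 (limma, adjusted p = 0.809).

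Both intervals include 0 and span differences in either direction. In the same contrast 7 of 638 miRNAs passed with limma (1.10%), all higher after injury. None was lower with limma or edgeR, beside 11 lower at an unadjusted limma p under 0.05, and 2 were lower with DESeq2. Lower calls also came from limma with the replicate block (9), without C57BL/6 naive libraries 4 and 5 (5) and without C57BL/6 naive library 5 (1). The count of 7 was 3 without CAST/Ei injured library 1 or 3 or naive library 1, 4 without injured library 2 or naive library 2, 5 without naive library 3, and 11 without C57BL/6 naive library 5. The injured libraries lay above every naive library for 65 miRNAs (10.2%), miR-135a-5p not among them, and below every naive library for 105 (16.5%), miR-135b-5p among them on the deposited scale but not with plain CPM. The median log2 difference over all 638 miRNAs was -0.09, and relative to it miR-135a-5p was at 0.37 and miR-135b-5p at -0.39.

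The C57BL/6 contrast, by which the family was picked, is given for size only. There miR-135a-5p was 2.37 times as abundant in injured as in naive ganglia, a log2 difference of 1.24 ± 0.26 (SE) with a 95% interval from 0.69 to 1.79. It ranked 25th from the highest of the 638 estimates. Over all miRNAs 20 of 638 passed the limma threshold (3.13%), and 55 (8.62%) had every injured library above every naive one, miR-135a-5p included. The count of 20 became 7, 7 and 6 without injured library 1, 2 or 3 and 70 without naive library 3. For miR-135b-5p the log2 difference was 0.10 ± 0.33 (SE), with a 95% interval from -0.61 to 0.80, and its sign turned without naive library 5 (-0.20), with edgeR (-0.14) and with DESeq2 (-0.11).

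The difference between the strains' injury effects, CAST/Ei minus C57BL/6, was -0.95 on the log2 scale for miR-135a-5p, with a 95% interval from -1.78 to -0.13. For miR-135b-5p it was -0.57, with an interval from -1.63 to 0.49, and it became -0.28 without C57BL/6 naive library 5 and -0.21 without naive libraries 4 and 5. The median of this difference over all tested miRNAs was -0.20. It contains the C57BL/6 contrast, so it too is a description.

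Between strains, in naive ganglia, both 5p arms had higher means in CAST/Ei. The log2 difference, CAST/Ei minus C57BL/6, was 0.68 for miR-135a-5p (95% interval 0.13 to 1.23) and 0.89 for miR-135b-5p (0.18 to 1.59), against a median of 0.12 over all tested miRNAs. Every CAST/Ei naive library lay above every C57BL/6 naive library for miR-135b-5p, as for 60 of 638 miRNAs (9.40%), but not for miR-135a-5p, and with plain CPM not for miR-135b-5p. In injured ganglia the difference was -0.27 for miR-135a-5p (-0.89 to 0.34) and 0.31 for miR-135b-5p (-0.48 to 1.10). The former was -0.46 without C57BL/6 injured library 2, -0.15 without C57BL/6 injured library 1 and -0.12 without CAST/Ei injured library 2. The CAST/Ei injured libraries still lay above all C57BL/6 injured libraries for miR-135b-5p, as for 98 miRNAs (15.4%). Both strain contrasts use libraries of the C57BL/6 contrast and have no test here.

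**Figure D2:**
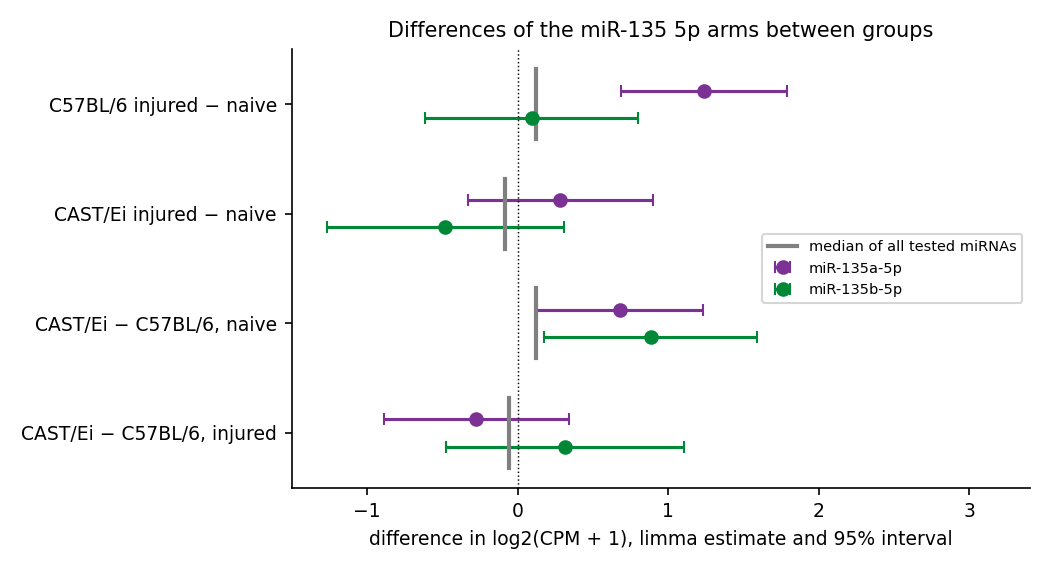
Differences of miR-135a-5p and miR-135b-5p in log2(CPM + 1) for the injury contrast in each strain and the strain contrast in each condition. Points are limma estimates, bars are 95% intervals, and grey lines mark the median of the 638 tested miRNAs. The estimate of miR-135a-5p was 1.24 in C57BL/6 and 0.29 in CAST/Ei, and both CAST/Ei injury intervals include 0.

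With the 5p arms added together, C57BL/6 ganglia held 146 ± 15.5 CPM (SD, n = 5) when naive and 253 ± 43.8 (n = 3) after injury. CAST/Ei ganglia held 242 ± 34.2 CPM (SD, n = 3) when naive and 236 ± 29.3 (n = 3) after injury. The 2 CAST/Ei means differed by less than either SD on the deposited scale. Pooled over a group without scaling, the sum was 226 CPM in CAST/Ei naive and 268 CPM in CAST/Ei injured ganglia, so their order depends on the scaling. The C57BL/6 naive mean was the lowest of the 4.

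The makeup of that sum was read as the share of miR-135b-5p among all miR-135 5p reads of a library, a ratio that scaling between libraries cannot move. For CAST/Ei the share was 53.7%, 45.9% and 43.7% in naive ganglia and 33.9%, 39.6% and 31.5% after injury. The CAST/Ei groups did not overlap, at means of 47.8% ± 5.26 and 35.0% ± 4.17 (SD, n = 3 each). The nearest libraries were naive 3, with a 95% exact binomial interval from 40.9% to 46.6% over 1223 reads, and injured 2, with an interval from 36.9% to 42.4% over 1262 reads. Those intervals overlap, and they cover counting error only, since the libraries carry no molecular identifiers.

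In C57BL/6 naive ganglia the share was 50.6%, 52.4%, 57.5%, 45.8% and 19.4%, and in C57BL/6 injured ganglia 23.1%, 30.0% and 26.0%. Naive library 5 lay below all injured libraries, and the other 4 naive libraries lay above them. The C57BL/6 injured mean was 26.4% ± 3.48 (SD, n = 3), and the naive mean was 45.1% ± 15.0 (n = 5), or 53.5% ± 3.55 (n = 3) without libraries 4 and 5. In both strains, then, miR-135a-5p made up the larger part of the 5p reads of every injured library, and it did so in 4 of the 8 naive libraries. These shares were not tested, because they were looked at with the C57BL/6 result known.

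**Figure D3:**
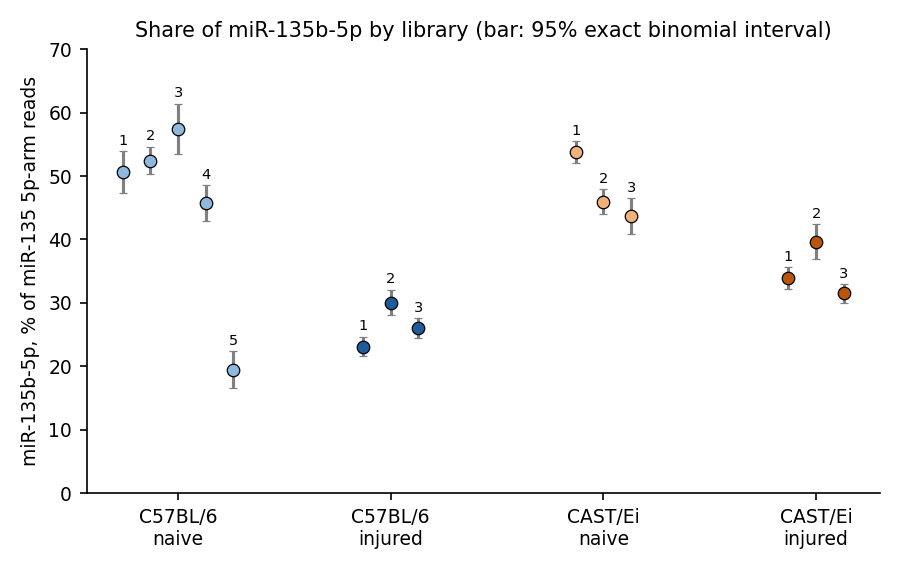
Share of miR-135b-5p among the miR-135 5p-arm reads of each library, in percent, by group; bars are 95% exact binomial intervals and numbers are replicates. The CAST/Ei injured libraries (31.5% to 39.6%) lie below the CAST/Ei naive ones (43.7% to 53.7%), and C57BL/6 naive library 5 lies at 19.4%.

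The 3p arms, usually the arm that is degraded, were close to the detection limit. miR-135a-2-3p had 6, 0, 3, 2 and 7 reads in the C57BL/6 naive libraries and 13, 14 and 19 in the C57BL/6 injured ones. Pooled over a group this came to 0.454 CPM, unscaled (95% exact Poisson interval 0.269 to 0.717) in naive and 1.57 (1.15 to 2.10) in injured ganglia. In CAST/Ei it had 7, 9 and 12 reads in the naive and 10, 6 and 8 reads in the injured libraries, or 0.902 (0.600 to 1.30) and 0.828 (0.531 to 1.23) CPM. These intervals cover counting error only and not the spread between libraries. In scaled CPM, C57BL/6 naive library 5 (1.32) lay just above injured library 1 (1.29), so the C57BL/6 groups overlapped by that 1 library. With plain CPM naive library 5 (1.21) lay below injured library 1 (1.30), so that overlap depends on the scaling.

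miR-135b-3p had 4, 12, 2, 13 and 0 reads in the C57BL/6 naive libraries and 0, 6 and 1 in the C57BL/6 injured ones. In CAST/Ei it had 4, 1 and 2 reads in the naive and 4, 2 and 3 in the injured libraries. Its pooled level was 0.781 CPM, unscaled (0.531 to 1.11), in naive and 0.239 (0.0962 to 0.493) in injured C57BL/6 ganglia. For CAST/Ei it was 0.226 (0.0907 to 0.465) without injury and 0.311 (0.142 to 0.590) with it. These intervals too cover counting error only, and most of the C57BL/6 naive reads came from libraries 2 and 4. The pooled order of this arm, highest in C57BL/6 naive, rests on too few reads to be set against that of miR-135b-5p. Most of these counts lie at or near the floor of 3 reads, which corresponds to 0.202 to 0.760 CPM depending on the library, and a count of 0 in C57BL/6 naive library 5 allows up to 0.564 CPM. Over all libraries miR-135a-2-3p made up 0.660% of the reads of miR-135a-5p and itself (116 reads against 17468), and miR-135b-3p made up 0.502% of the reads of the miR-135b arms (54 against 10698). The 5p arm therefore held nearly all reads of each pair, and for miR-135a the 5p reads include those from Mir135a-1.

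let-7g, a member of the let-7 family that represses growth genes, has the only other hairpin within 50000 bases of a miR-135 hairpin in the reference. It lies 24627 bases from Mir135a-1 on the same strand, at chr9:106178840-106178927. Its main arm let-7g-5p stood at 13183 ± 3018 CPM (SD, n = 3) without injury and 11083 ± 226 (n = 3) with it in CAST/Ei, a log2 difference of -0.23 (limma, adjusted p = 0.922). The log2 difference of let-7g-3p was 0.16 (limma, adjusted p = 0.953). In C57BL/6 the estimates were 0.55 for let-7g-5p and -0.21 for let-7g-3p, beside 1.24 for miR-135a-5p.

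The 5 miRNAs whose levels were most like miR-135a-5p over the 14 libraries, by Pearson's r of log2(CPM + 1), were miR-344d-3p (0.846), miR-493-5p (0.823), miR-380-3p (0.794), miR-344h-3p (0.779) and miR-344e-3p (0.767). miR-493 and miR-380 come from the imprinted Dlk1-Dio3 miRNA cluster. The level of miR-493-5p was 173 ± 27.1 CPM (SD, n = 5) in naive and 365 ± 25.0 (n = 3) in injured C57BL/6 ganglia. Its CAST/Ei means were 192 ± 54.1 CPM (SD, n = 3) in naive and 284 ± 34.7 (n = 3) in injured ganglia. miR-344h-3p and miR-344e-3p were scarce, with group means of at most 10.4 CPM. Without C57BL/6 naive libraries 4 and 5, 3 of these 5 remained among the 5 highest.

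miR-135b-5p ranked 342nd in this order, with an r of 0.03. Its Spearman correlation with miR-135a-5p was -0.03. miR-21a-5p, a miRNA known to rise after nerve injury, ranked 8th with an r of 0.743. All these values share the group structure, the depth and the scaling of the same libraries, so they are descriptions without a p.

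Among 23 miRNAs reported in axon growth or regeneration, all in the files and all above the filter, 2 rose after injury in CAST/Ei and 21 did not pass (limma), beside 7 of all 638 miRNAs. None of the list fell with limma, edgeR or DESeq2, nor was any lower at an unadjusted limma p under 0.05. miR-431-5p, known to promote axon growth of DRG neurons by repressing Kremen1, went from 94.4 ± 36.9 to 340 ± 4.84 CPM (SD, n = 3 each), a log2 difference of 1.93 (limma, adjusted p = 0.00269). miR-21a-5p went from a mean of 6323 to 18567 CPM, a log2 difference of 1.57 ± 0.32 (SE; limma, adjusted p = 0.0209). Its adjusted p rose to between 0.0554 and 0.129 when any 1 CAST/Ei library was left out, while miR-431-5p passed in each of those fits. Without C57BL/6 naive libraries 4 and 5 the count was also 2.

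The next 4 by p did not pass. They were miR-212-3p (log2 difference 0.60; limma, adjusted p = 0.665), processed from the same transcript as miR-132, the neuronal miR-9-5p (-0.55; adjusted p = 0.667), miR-221-3p (0.59; adjusted p = 0.676) and miR-138-5p (-0.39; adjusted p = 0.676), known to repress SIRT1. The median over the list was -0.21 with 10 of 23 above 0, beside -0.09 over all tested miRNAs, and it lay below the median of all tested miRNAs under other scalings too (0.05 against 0.16 with plain CPM, 0.03 against 0.13 when the scaling left out the top 3 miRNAs by level). In C57BL/6 the list's median was -0.06, also with 10 above 0, beside a median of 0.12 over all tested miRNAs. Of all 638 miRNAs, 273 were above 0 in CAST/Ei and 367 in C57BL/6 on the deposited scale. The CAST/Ei estimates of the miR-135 5p arms, 0.29 and -0.48, lay inside the range of the 21 that did not pass.

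**Figure D4:**
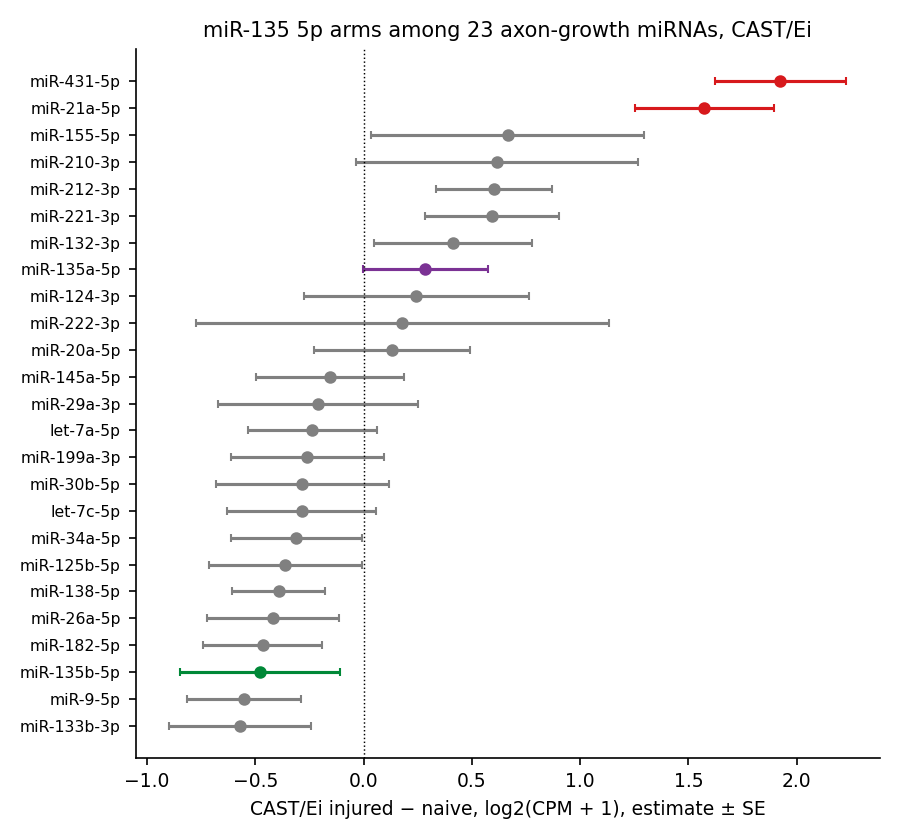
Injury effect in CAST/Ei as the difference in log2(CPM + 1), estimate ± SE, for 23 miRNAs reported in axon growth (grey, or red where past the threshold) with miR-135a-5p (purple) and miR-135b-5p (green). miR-431-5p (1.93) and miR-21a-5p (1.57) stand to the right, and miR-135a-5p (0.29) and miR-135b-5p (-0.48) lie among the miRNAs that did not pass.

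The libraries held 4007706 to 15642360 reads, with 949 to 1084 of the 1123 miRNAs detected per library. Sensory neuron miRNAs (miR-183-5p, miR-182-5p, miR-96-5p, miR-124-3p and miR-138-5p) were present in every library, at a summed 95969 to 161052 CPM. C57BL/6 naive libraries 4 and 5 stood apart. The motor neuron miRNA miR-218-5p was at 260520 and 81351 CPM there, against 3986 to 5846 in naive libraries 1 to 3, and the hepatocyte miRNA miR-122-5p was at 661 and 369 CPM against 8.63 to 15.7. Their 6 epithelial miRNAs summed to 1496 and 306 CPM against 34.0 to 44.7, and their 3 myelinating glia miRNAs to 6737 and 7123 CPM against 15065 to 33997.

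Without those 2 libraries the C57BL/6 naive mean was 69.1 ± 8.66 CPM (SD, n = 3) for miR-135a-5p and 80.0 ± 14.3 for miR-135b-5p. The C57BL/6 injury estimate then became 1.41 for miR-135a-5p and -0.26 for miR-135b-5p, and the naive strain difference 0.85 and 0.53. The CAST/Ei injury estimates do not use their levels and were 0.29 and -0.48 as before. The spread is estimated over all 4 groups, however, so their adjusted p moved (limma). It went from 0.870 to 0.521 for miR-135a-5p and from 0.809 to 0.262 for miR-135b-5p, and 17 miRNAs passed in place of 7.

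Summed cell type markers were set beside the CAST/Ei contrast. The summed sensory neuron miRNAs were at 120554 to 136550 CPM in naive and 95969 to 104135 in injured libraries, and all 5 were detected in every library. The summed epithelial miRNAs were at 124 to 163 CPM in naive and 63.3 to 76.7 in injured libraries. The myelinating glia sum was at 34807 to 39832 against 28781 to 30287 CPM, the skeletal muscle sum at 8558 to 11223 against 6254 to 7253, the erythrocyte sum at 9088 to 12815 against 7212 to 8867, and the leukocyte sum at 2796 to 5038 against 4825 to 5816. All but the leukocyte sum were lower in every injured library on the deposited scale, but members differed. Scaled totals were 970957 to 1143936 in naive and 867581 to 918325 in injured libraries. With plain CPM the sensory neuron, glia and erythrocyte sums therefore overlap. Over all 638 tested miRNAs, 10.2% were higher and 16.5% lower in every injured library. Of 6 leukocyte miRNAs, 3 were higher in every injured library, miR-142-3p (830 to 1052 against 1468 to 1989 CPM), miR-142-5p and miR-511-3p. Of 6 epithelial miRNAs, miR-200a-3p, miR-200b-3p and miR-429-3p were lower in every injured library, miR-200c-3p was higher (2.75 to 5.50 against 5.59 to 8.67 CPM) and 2 overlapped. Of 5 sensory neuron miRNAs, 2 were lower in every injured library, miR-182-5p and miR-138-5p, and 3 overlapped. Lower too were miR-338-3p of 3 glia miRNAs, miR-1a-3p and miR-133a-3p of 3 muscle miRNAs, and miR-486-5p of 3 erythrocyte miRNAs. The rest of these lists overlapped. miR-218-5p was at 3479 to 17984 CPM in naive and 4807 to 6639 in injured libraries, and miR-122-5p at 11.7 to 39.8 and 14.3 to 18.3. In C57BL/6, beside the higher miR-135a-5p, the sensory neuron sum was at 127937 to 161052 CPM in naive and 99982 to 105724 in injured libraries. The myelinating glia sum was at 6737 to 33997 against 34077 to 43006 CPM, and neither of these sums overlapped between the groups on the deposited scale. The C57BL/6 leukocyte sum, at 4008 to 6805 against 5656 to 7536 CPM, overlapped, as did the muscle, epithelial and erythrocyte sums, but miR-142-5p and miR-511-3p were higher in every injured library. So were miR-338-3p and miR-144-3p, beside 8.62% of all 638 tested miRNAs. Lower in every C57BL/6 injured library were miR-138-5p, miR-133a-3p and miR-206-3p, for which no share over all miRNAs was counted. No marker of these lists was at 0 reads in any library. The part of these shifts in the miR-135 values was not tested. In bulk ganglia, fewer cells of a type and less of a miRNA per cell cannot be told apart.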

How the data were processed

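Small RNA libraries were made from dissociated ganglia with the miRVana and Ion Total RNA-Seq kits, per the labels' protocols, and aligned with Bowtie2, per the submitters' processing notes. The genome build and the release of miRNA names are not stated in those notes or the labels. The deposited values are a scaled signal per mature miRNA. All values were whole multiples of 1 read within 1e-06 reads, and TMM factors (edgeR 4.0.16) computed from those reads matched the scaled totals to within 1.04e-05, so the deposited signal is CPM on TMM-scaled library sizes. The planned limma test had been written for unscaled CPM and was used as it stood. Recovery of reads was least certain in C57BL/6 injured library 1, so edgeR was also run without it, an alternative chosen after seeing the data.

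The 638 of 1123 miRNAs that reached 5 CPM in 3 or more libraries were tested as log2(CPM + 1), a scale that understates changes of scarce miRNAs, with limma-trend (limma 3.58.1, R 4.3.3) and a mean for each of the 4 groups. P-values are two-sided, adjusted by Benjamini and Hochberg over the 638. The scripts were tested on simulated data. Alternatives were edgeR, DESeq2 1.42.0, other pseudocounts, filters, scalings and sample sets. Shares have exact binomial and pooled reads exact Poisson intervals.

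The members, the 23 axon miRNAs and the marker lists were chosen with earlier results of these data known. Beside the members, the text names the 5 miRNAs most like miR-135a-5p, those with a hairpin within 50000 bases, miR-21a-5p, and of the axon list those past the threshold and the 4 next by p. Marker lists for leukocytes, erythrocytes, muscle, epithelium, glia, sensory and motor neurons and hepatocytes were summed per library.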

Additional observations from a re-analysis of the deposited data

How the results depend on the processing

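Over 27 alternatives the CAST/Ei injury estimate of miR-135a-5p stayed between 0.19 and 0.55 (adjusted p 0.511 to 0.986) and that of miR-135b-5p between -0.63 and -0.21 (adjusted p 0.254 to 0.986), each with 1 sign and never past the threshold. Leaving out 1 library in turn gave 0.19 to 0.44 (the latter without CAST/Ei injured library 2) and -0.63 to -0.40. Plain CPM moved the median of all miRNAs in CAST/Ei from -0.09 to 0.16, and relative to it the members were at 0.39 and -0.38. The C57BL/6 estimate of miR-135a-5p stayed between 1.08 and 1.43, and that of miR-135b-5p, -0.26 to 0.24, kept its sign in 21 of 27. The count of CAST/Ei calls was 7 with limma, 8 with edgeR (also 8 without C57BL/6 injured library 1), 15 with DESeq2, 17 without C57BL/6 naive libraries 4 and 5, and 3 to 11 with 1 library left out. The C57BL/6 count, 20 with limma, was 32 with edgeR (6 without injured library 1), 79 with DESeq2, 3 with only the groups compared, 37 with the replicate block and 6 to 70 with 1 library left out. The deviations of same-numbered CAST/Ei libraries from their group means had correlations of 0.149, 0.019 and -0.038, and not every one correlated best with its own number. In C57BL/6 the same-numbered correlations were -0.081, -0.049 and 0.312. Deviations from a mean of few libraries cancel within the group, so these values cannot settle whether libraries were paired. With the replicate block the limma estimates were 0.29 (adjusted p = 0.520) and -0.48 (adjusted p = 0.254), and 21 miRNAs passed. Replicate numbers 4 and 5 occur only in C57BL/6 naive, so the block also takes those libraries out of the comparison. Its result is therefore no measure of pairing alone, and without them the limma adjusted p was 0.521 and 0.262. At a few reads per library, the 3p arms allow no comparison between groups, since the pooled intervals leave out the spread between libraries.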
